A study of Mus musculus with 9 samples.

Results

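Antibodies against Notch receptors were compared with antibodies against their ligands in the cells of the mouse thyroid that are not thyrocytes. The cells were all those to which the authors gave the label EC1, EC2, EC3, EC4 or F, in the pools treated with anti-Notch1 and anti-Notch2 (group aN1aN2, 3 pools) or with anti-Jag1 and anti-Jag2 (group aJ1aJ2, 3 pools). There were 2697 such cells among the 6570 cells of these 6 pools and the 10186 cells of all 9 pools of the study. EC1 held 942 of them, EC2 328, EC3 231, EC4 778 and F 418. Male C57BL/6 mice received a single intraperitoneal injection, and thyroids were taken after 7 days. The aN1aN2 mice received 5 mg/kg anti-Notch1 with 10 mg/kg anti-Notch2, the aJ1aJ2 mice 20 mg/kg of each ligand antibody, and the control mice (group RW, 3 pools) 40 mg/kg of an antibody against ragweed. The age of the mice is given as 10 to 12 weeks in the design text and as 10 to 14 weeks in the treatment protocol. Each pool combined the digested thyroids of 6 mice, was measured by droplet single-cell RNA sequencing of transcript 3′ ends, and is 1 replicate, so p-values measure the spread between pools.

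Notch receptors are activated by Jagged or Delta-like ligands on a neighbouring cell, after which the cleaved receptor joins the DNA-binding factor RBPJ and switches on genes of the Hes and Hey families. In blood vessels, Notch signalling promotes arterial identity and modulates the response of endothelial cells to vascular endothelial growth factor (VEGF), whose main signalling receptor is encoded by Kdr. The thyroid follicles are surrounded by a dense bed of fenestrated capillaries, and its fibroblasts make the collagen-rich matrix between them.

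Markers of each cell type were summed per pool and label and given as counts per 1000000 UMIs (CPM), where a UMI marks 1 captured transcript molecule. The 10 endothelial markers summed to between 5452 and 14859 CPM in the pools of EC1 to EC4 that were tested, and to between 103 and 220 CPM in F. In EC1 this sum, which includes Kdr, was 11960 to 14319 CPM in aJ1aJ2 and 9606 to 10056 CPM in aN1aN2. In EC4 it was 12201 to 14859 CPM in aJ1aJ2 and 11399 to 12118 CPM in aN1aN2. The 2 groups overlapped in EC2 and EC3. The 9 fibroblast markers summed to between 33436 and 50217 CPM in F and to at most 1105 CPM in EC1 to EC4, so endothelial markers marked the EC labels and fibroblast markers F. EC2 and EC3 also held markers of mural cells (pericytes and smooth muscle), at 625 to 7768 CPM and 753 to 4371 CPM. Cells were mostly shallower in the aN1aN2 pools: the median UMIs per EC1 cell were 2518 to 3533 there and 3473 to 4071 in the aJ1aJ2 pools, and in F 2295 to 3864 against 5231 to 7910. EC4 cells were shallow in every group, with medians of 880 to 1213 UMIs. Of 10171 barcodes, 15 occurred in 2 pools. The sample numbers in the titles put the aN1aN2 pools in a range of their own, so a processing batch of that range and the receptor antibodies cannot be told apart.

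EC4 cells made up a larger share of the aN1aN2 pools, and EC1 and F cells a smaller one. EC4 made up 17.0%, 17.1% and 16.4% of the cells in aN1aN2 pools 1, 2 and 3, and between 7.38% and 9.85% in the aJ1aJ2 pools, a difference of 8.53 percentage points. EC1 made up 8.14% to 11.2% of aN1aN2 pools and 15.3% to 19.8% of aJ1aJ2 pools, and F 4.49% to 4.80% against 6.70% to 9.26%. For these 3 labels the groups did not overlap, and the exact permutation test (two-sided, n = 3 pools a group) gave p = 0.1, the smallest it can give (0.167 after Benjamini-Hochberg adjustment over the 5 labels). EC2 and EC3 shares overlapped between the groups (exact permutation p = 0.7 each). Without erythroid cells the EC3 shares did not overlap, at 4.83% to 5.58% in aN1aN2 and 3.56% to 4.46% in aJ1aJ2 (exact permutation p = 0.1). The RW pools lay at 4.78% to 10.4% for EC4, at 13.8% to 27.4% for EC1 and at 2.47% to 3.87% for F. Among cells with at least 1000 UMIs the EC4 difference was 5.10 percentage points, and without erythroid cells it was 14.8 percentage points.

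**Figure D1:**
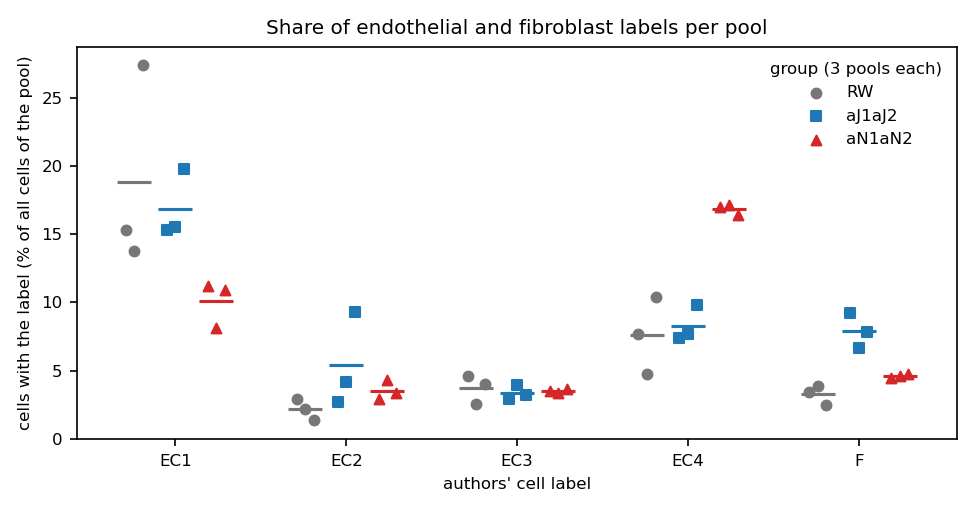
Cells carrying each label as a percentage of all cells of the pool (vertical axis), for labels EC1 to EC4 and F (horizontal axis). Each symbol is 1 pool (grey RW, blue aJ1aJ2, red aN1aN2) and each line the mean of 3 pools. The 3 aN1aN2 pools lie at 16.4% to 17.1% for EC4, above all other pools.

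Counts were then summed per pool and label and tested with edgeR's quasi-likelihood test over all genes of a label, with a Benjamini-Hochberg adjusted p under 0.05 as the threshold for a call. All differences are aN1aN2 minus aJ1aJ2 on the log2 scale with the standard error (SE), and CPM values are scaled by the same normalization factors. In EC1, 1310 of 9369 tested genes were called (14.0%), 670 higher (7.15%) and 640 lower (6.83%). EC4 gave 543 of 3101 (17.5%), with 287 higher (9.26%) and 256 lower (8.26%), and F gave 785 of 4840 (16.2%), with 378 higher (7.81%) and 407 lower (8.41%). EC2 gave 294 of 2508 (11.7%), with 160 higher (6.38%) and 134 lower (5.34%), and EC3 gave 124 of 6476 (1.91%), with 75 higher (1.16%) and 49 lower (0.757%). In EC2 and EC3 only aJ1aJ2 pools 3 and 4 held the 20 cells required. In EC1 the aN1aN2 pools all lay above the aJ1aJ2 pools for 15.0% of the tested genes and all below for 15.4%. The same shares were 18.1% and 19.2% in EC2, 13.7% and 14.7% in EC3, 17.3% and 15.2% in EC4, and 16.6% and 18.2% in F. The EC3 count fell to 30 without aJ1aJ2 pool 3, to 31 without aJ1aJ2 pool 4, to 73 without aN1aN2 pool 2 and to 79 without aN1aN2 pool 3. Leaving out aJ1aJ2 pool 3 or 4 in EC2 and EC3 left 1 aJ1aJ2 pool, which was then assumed to vary like the pools of the other groups. The F count fell to 502 without aN1aN2 pool 2.

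In EC1, 3 Notch target genes, 6 arterial genes, the VEGF receptor gene Kdr and the co-receptor gene Nrp1 were lower under the receptor antibodies than under the ligand antibodies, and 3 venous genes were higher. Of 10 listed Notch targets, 5 passed the filter on low counts and 3 fell (Hes1, Hey1 and Hey2). None rose, and the median over the 5 was -1.27 against -0.01 over all genes tested. Of 10 arterial genes tested, 6 fell and none rose (median -1.20). Of 4 venous genes tested, 3 rose and none fell (median 0.96).

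Hes1, a transcriptional repressor and direct Notch target (chr16:30064384-30067796 in GRCm38), was at 266, 292 and 231 CPM in EC1 of aJ1aJ2 pools 1, 3 and 4, and at 112, 91.2 and 124 CPM in aN1aN2 pools 1, 2 and 3 (-1.27 ± 0.17 SE, adjusted p = 1.11e-06). Hey1, a related repressor, was at 39.1, 45.4 and 30.3 CPM against 2.29, 2.68 and 6.37 CPM (-3.38 ± 0.58 SE, adjusted p = 9.11e-05). Hey2 was at 13.0, 21.7 and 16.8 CPM against 2.29, 5.36 and 3.18 CPM (-2.30 ± 0.63 SE, adjusted p = 0.00981). The aN1aN2 pools were below every aJ1aJ2 pool for all 3, and the RW pools lay at 198 to 282 CPM for Hes1, 19.3 to 44.5 CPM for Hey1 and 9.54 to 22.6 CPM for Hey2. The Hey2 call was lost without aN1aN2 pool 1 (adjusted p = 0.0861) and in DESeq2 (adjusted p = 0.0525). The other Notch targets tested, Nrarp and Dtx3, were not called, Nrarp with 35.8 to 104 CPM against 61.7 to 77.8 CPM (0.19 ± 0.32 SE, adjusted p = 0.784).

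The receptors targeted by the antibodies were themselves not called in EC1. Notch1 was at 279 to 298 CPM in aJ1aJ2 and 229 to 283 CPM in aN1aN2 (-0.18 ± 0.13 SE, adjusted p = 0.424), and Notch2 was low, at 5.75 to 11.4 CPM against 10.7 to 22.9 CPM (1.05 ± 0.48 SE, adjusted p = 0.153). Notch4, a receptor largely restricted to endothelium and not targeted here, was at 158, 111 and 119.9 CPM against 149, 233 and 156 CPM. It passed the threshold narrowly with overlapping pools (0.50 ± 0.17 SE, adjusted p = 0.0499) and lost its call in 9 of 12 alternatives, with adjusted p up to 0.467. Jag1, one of the ligands targeted in the other group, was at 22.8, 19.8 and 29.6 CPM in aJ1aJ2 and at 57.2, 45.6 and 50.9 CPM in aN1aN2 (1.08 ± 0.27 SE, adjusted p = 0.00452). All 3 aN1aN2 pools lay above all aJ1aJ2 pools and above the RW pools (26.6 to 33.1 CPM) for Jag1. Its call was lost without aN1aN2 pool 1 (adjusted p = 0.0535) and with an equal number of cells from each pool (adjusted p = 0.18). Jag2 (0.31 ± 0.18 SE), Dll1 (0.61 ± 0.40 SE) and Dll4 (-0.69 ± 0.29 SE) were not called, with adjusted p = 0.294, 0.365 and 0.146. Dll4 was called without the filter on low counts (adjusted p = 0.00109) and without aJ1aJ2 pool 3 (adjusted p = 0.0135). Of 16 Notch processing and cofactor genes tested, 2 rose and none fell. Mfng, a glycosyltransferase that modifies Notch receptors, was at 94.5, 115 and 109 CPM against 219.6, 207 and 207 CPM (0.97 ± 0.15 SE, adjusted p = 1.74e-05). The other, Psenen, a subunit of the protease that cleaves Notch (0.46 ± 0.15 SE, adjusted p = 0.0375), lost its call in 7 of 12 alternatives, with adjusted p up to 0.207.

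Kdr (chr5:75932827-75978458), encoding VEGF receptor 2, was at 2225, 2084 and 2118 CPM in the aJ1aJ2 pools and at 416, 410.3 and 401 CPM in the aN1aN2 pools of EC1 (-2.39 ± 0.11 SE, adjusted p = 5.25e-17). Nrp1, a co-receptor for VEGF, was at 2196, 2275 and 2170 CPM against 535, 373 and 509 CPM (-2.23 ± 0.12 SE, adjusted p = 1.44e-15). The RW pools lay at 2035 to 2400 CPM for Kdr and 1981 to 2106 CPM for Nrp1, and the aN1aN2 pools lay far below either group. The other 5 VEGF and angiopoietin receptors tested were not called. Esm1, a secreted proteoglycan of VEGF-stimulated endothelium (chr13:113209659-113218098), was at 2738, 2058 and 2281 CPM against 217, 185 and 217 CPM (-3.51 ± 0.15 SE, adjusted p = 6.55e-16). Of 15 tip cell genes, a list of genes of sprouting endothelium, 4 fell (Esm1, Lamb1, Nid1 and Pdgfb) and 3 rose (Pgf, Adm and Trp53i11), with a median of -0.41.

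Among the arterial genes of EC1, Gja4, the gap junction protein connexin 37 (chr4:127311421-127314039), was at 103, 80.5 and 69.4 CPM in the aJ1aJ2 pools and at 4.58, 5.36 and 3.18 CPM in the aN1aN2 pools (-4.17 ± 0.40 SE, adjusted p = 1.45e-09), from 292 and 5 UMIs. Efnb2, the arterial ligand ephrin-B2, was at 262, 271 and 282 CPM against 93.8, 118 and 115 CPM (-1.33 ± 0.15 SE, adjusted p = 4.07e-08). Alox12, a lipoxygenase, was at 104, 112 and 89.6 CPM against 11.4, 13.4 and 6.37 CPM (-3.24 ± 0.30 SE, adjusted p = 4.26e-10). For none of the 3 did a pool of one group reach the other. Unc5b, a netrin receptor (-2.58), Stmn2 (-2.23) and the chemokine Cxcl12 (-1.06) were called lower as well. Stmn2 and Cxcl12 were named in EC1 after their values were seen. Among venous genes, Lrg1 (chr17:56119678-56122001), a secreted glycoprotein, was at 34.2, 35.8 and 34.3 CPM against 336, 303 and 350.1 CPM (3.24 ± 0.17 SE, adjusted p = 1.02e-15). Nr2f2, the transcription factor of venous identity, was at 19.6, 30.7 and 30.3 CPM against 64.0, 51.0 and 44.6 CPM (0.93 ± 0.27 SE, adjusted p = 0.0143), a call lost without aN1aN2 pool 1 (adjusted p = 0.151) and with an equal number of cells from each pool (adjusted p = 0.184). Both rose without overlap, Lrg1 by far the more. Ephb4, the venous receptor for ephrin-B2, was at 153 to 175 CPM against 217 to 226 CPM (0.43 ± 0.14 SE, adjusted p = 0.0376) and lost its call in 8 of 12 alternatives, with adjusted p up to 0.171.

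**Figure D2:**
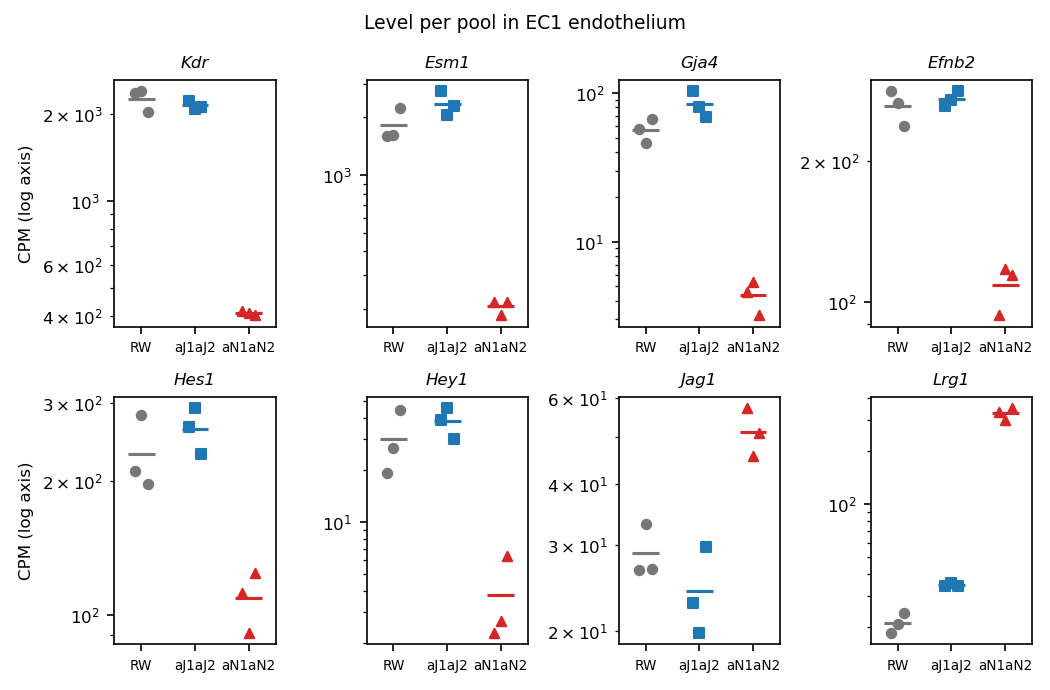
Levels per pool in EC1 in CPM (vertical axis, logarithmic, scale differs between panels) of Kdr, Esm1, Gja4, Efnb2, Hes1, Hey1, Jag1 and Lrg1. Each symbol is 1 pool (grey RW, blue aJ1aJ2, red aN1aN2) and each line the mean of 3 pools. The aN1aN2 pools lie below the RW and aJ1aJ2 pools for the first 6 genes and above them for Jag1 and Lrg1.

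The core sequence TGGGAA bound by RBPJ was looked up on both strands in windows from 250 bases before to 50 bases after RefSeq transcription starts (GRCm38.p6). It was present in 28.3% of 27025 genes with a window, in 26.0% of those tested in EC1, in 27.2% of those called higher and in 28.6% of those called lower. In F it was present in 25.7% of the genes tested, 30.4% of those called higher and 33.1% of those called lower. Hes1 and Hey1 had no window. The windows of Hey2 (chr10:30842734-30843033, minus strand, 2 matches) and Cxcl12 (chr6:117168285-117168584, plus strand, 1 match) are shown because both genes fell in EC1 and hold the core, which is in capitals. A match describes the letters only.
Hey2: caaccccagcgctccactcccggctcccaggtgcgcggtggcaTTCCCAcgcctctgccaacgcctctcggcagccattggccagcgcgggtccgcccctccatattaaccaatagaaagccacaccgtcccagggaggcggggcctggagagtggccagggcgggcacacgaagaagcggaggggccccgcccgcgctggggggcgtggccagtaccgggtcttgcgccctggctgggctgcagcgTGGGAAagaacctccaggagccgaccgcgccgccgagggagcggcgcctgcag
Cxcl12: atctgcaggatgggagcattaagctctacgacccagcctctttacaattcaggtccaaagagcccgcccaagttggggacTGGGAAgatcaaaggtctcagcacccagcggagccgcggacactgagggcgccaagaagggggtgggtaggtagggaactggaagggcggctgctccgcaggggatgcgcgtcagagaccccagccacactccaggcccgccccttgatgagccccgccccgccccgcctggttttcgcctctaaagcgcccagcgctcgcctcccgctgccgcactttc

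Some EC1 genes went from clearly detected to 0. Has3, a hyaluronan synthase, and Dkk2, a secreted regulator of Wnt signalling, had 56 and 34 UMIs over the 3 aJ1aJ2 pools and none in the aN1aN2 pools. With 3 counts over the group taken as the floor, Has3 was at least 5.73-fold lower and Dkk2 at least 3.48-fold lower. Rflna, Adamtsl2 and Kazn showed the same pattern with 42, 38 and 38 UMIs. In the other direction Pgf, placental growth factor, had 2 UMIs in aJ1aJ2 and 29 in aN1aN2, a ratio of 47.3 with a 95% counting interval of 12.0 to 409. Slc10a6, a transporter of sulfated steroids, was at 8.15, 8.30 and 6.73 CPM against 112, 137 and 178 CPM (4.18 ± 0.29 SE, adjusted p = 7.49e-13). Tbxa2r, the thromboxane receptor, was at 223, 159.7 and 167 CPM against 16.0, 8.05 and 6.37 CPM (-4.06 ± 0.28 SE, adjusted p = 7.49e-13). Both had groups that did not overlap. Beside these, the sum of 8 macrophage markers in EC1 was 28.5 to 92.0 CPM in aJ1aJ2 and 5.34 to 12.7 CPM in aN1aN2, where 7 of the 8 had no UMI in pools 1 and 2, and C1qb was among the 10 genes with the lowest differences, a call lost in 5 of 11 alternatives (adjusted p up to 0.209). The sum of 11 thyrocyte markers was 794 to 1267 CPM against 1340 to 1967 CPM, with Duox2 at 0 in all 6 pools. The sum of 8 mural markers was 60.5 to 77.5 CPM against 93.7 to 250 CPM. That of 6 erythroid markers was 549 to 11137 CPM against 2360 to 7861 CPM, and 3937 to 21298 CPM in the RW pools. Their part in the EC1 calls was not tested.

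EC4 gave the same direction for the leading vascular genes. Kdr was at 3084, 2835 and 3144 CPM in aJ1aJ2 and at 834, 653 and 819 CPM in aN1aN2 of EC4 (-1.97 ± 0.16 SE, adjusted p = 1.21e-12). Nrp1 was at 3630, 3538 and 3239 CPM against 706, 714 and 599.8 CPM (-2.35 ± 0.16 SE, adjusted p = 6.50e-15). Esm1 was at 2610, 1548 and 2151 CPM against 217, 311 and 114 CPM (-3.23 ± 0.31 SE, adjusted p = 4.47e-06). The groups were far apart for all 3, with RW beside aJ1aJ2 for Kdr (3009 to 3473 CPM). None of 3 venous genes tested in EC4 was called (median 0.51). Of 6 arterial genes tested, 4 fell and none rose (median -1.37): Efnb2 (-1.51 ± 0.25 SE), Cxcl12 (-2.21 ± 0.34 SE), Alox12 (-2.05 ± 0.53 SE) and Sox17 (-1.23 ± 0.40 SE). Sox17, a transcription factor of arterial endothelium, overlapped between the groups and lost its call in 7 of 10 alternatives, with adjusted p up to 0.354, and Alox12 lost it without aJ1aJ2 pool 4 (adjusted p = 0.0551) or aN1aN2 pool 1 (adjusted p = 0.0589). Hes1 was at 261, 409 and 316 CPM against 145, 198 and 162 CPM (-1.04 ± 0.26 SE, adjusted p = 0.00347) and lost its call without aJ1aJ2 pool 3 (adjusted p = 0.0636) and with an equal number of cells from each pool (adjusted p = 0.796). Dll4, the main Delta-like ligand of arterial and sprouting endothelium, was at 237, 302 and 177 CPM against 150.2, 159.5 and 124 CPM, short of the threshold (-0.70 ± 0.28 SE, adjusted p = 0.0797). Dll4 was called among cells with at least 1000 UMIs (adjusted p = 0.0488) and without aJ1aJ2 pool 4 (adjusted p = 0.0352). A test of the difference between the EC4 and EC1 responses called 15 of 5681 genes (0.264%), 2 higher (0.0352%) and 13 lower (0.229%) in EC4, and no Notch target, arterial, venous or VEGF receptor gene was among them. Without the filter on low counts 7 were higher and 5 lower. The count of 15 was 9 without aJ1aJ2 pool 3, 7 without aJ1aJ2 pool 4 and 6 without aN1aN2 pool 1. Erythroid markers in the EC4 sums were 116 to 6761 CPM in aJ1aJ2 and 1667 to 2386 CPM in aN1aN2. Thyrocyte markers were 908 to 5164 CPM in aJ1aJ2 and 1622 to 1963 CPM in aN1aN2. The part of these markers in the EC4 calls was not tested.

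In EC2, Kdr was at 685 and 929 CPM in aJ1aJ2 pools 3 and 4 and at 373, 150.4 and 165 CPM in aN1aN2 (-1.74 ± 0.29 SE, adjusted p = 4.76e-04). Cxcl12 was at 2256 and 2344 CPM against 849, 602 and 519.9 CPM (-1.78 ± 0.19 SE, adjusted p = 4.81e-07). Both fell without overlap, as did Nrp1 (-1.09 ± 0.23 SE) and Stmn2 (-2.62 ± 0.43 SE), and 2 of 7 arterial genes tested fell and none rose (median -0.58). Of 4 venous genes tested 1 rose (Lrg1, list median 0.49), a call lost with an equal number of cells from each pool (adjusted p = 0.0748). Of 3 Notch targets tested in EC2 none was called. Hes1 was at 243 and 153 CPM against 167, 241 and 236 CPM, with overlapping pools (0.11 ± 0.34 SE, adjusted p = 0.913). Hey1 was at 104 and 38.8 CPM against 0, 30.1 and 0 CPM (-2.60 ± 1.08 SE, adjusted p = 0.135). Hey1 was called without the filter on low counts (adjusted p = 0.0299) and the third, Nrarp, without aN1aN2 pool 2 (adjusted p = 0.0326). The response of Hes1 in EC2 was higher than in EC1 by 1.33 ± 0.34 SE, adjusted p = 0.0207 in the test of the difference.

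Genes of fenestrae, caveolae (flask-shaped pits of the cell membrane) and cell junctions were called in both directions in EC2. Plvap, the protein of fenestral and caveolar diaphragms, was at 20.9 and 41.4 CPM in aJ1aJ2 and at 322, 90.2 and 213 CPM in aN1aN2 (2.69 ± 0.54 SE, adjusted p = 0.00219), a call lost without aN1aN2 pool 1 (adjusted p = 0.0736) and with an equal number of cells (adjusted p = 0.173). Cldn5, a tight junction protein, was at 956 and 1105 CPM against 2303, 2602 and 2269 CPM (1.21 ± 0.18 SE, adjusted p = 5.40e-05). Both genes were highest in the aN1aN2 pools. Of the 14 fenestra and junction genes tested in EC2, 3 rose (Plvap, Cldn5 and Esam) and 5 fell (median -0.33), and the 5 encode components or regulators of caveolae. Cavin2 was at 1926 and 1982 CPM against 1145, 692 and 1087 CPM (-1.01 ± 0.19 SE, adjusted p = 6.00e-04) and Ehd2 at 859 and 1012 CPM against 540.3, 436 and 496 CPM (-0.93 ± 0.20 SE, adjusted p = 0.00219). Cavin1 (-0.84), Cav2 (-0.80) and Cav1 (-0.54) were the others, the last 2 named after their values were seen. The Esam call was lost without the filter on low counts (adjusted p = 0.109) and without aJ1aJ2 pool 3 (adjusted p = 0.0534). The Cavin1 call was lost with an equal number of cells (adjusted p = 0.067) and without aJ1aJ2 pool 4 (adjusted p = 0.0693). Cavin1, Cavin2, Ehd2 and the junction gene Cdh5 responded lower in EC2 than in EC1 in the test of the difference. Ehd4 responded higher (1.71 ± 0.41 SE), and the other 11 of 16 listed genes tested were not called. Edn1, endothelin-1, was at 139 and 202 CPM against 12.9, 15.0 and 47.3 CPM (-2.96 ± 0.56 SE, adjusted p = 6.40e-04).

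Between EC2 and EC1, 77 of 6899 genes differed in response (1.12%), 21 higher (0.304%) and 56 lower (0.812%) in EC2, and the median over all genes was -0.11. Of the called genes 27.3% were higher in EC2, against 41.8% with DESeq2 size factors. Gja4 responded higher in EC2 by 6.08 ± 0.90 SE, adjusted p = 1.97e-06: it averaged 16.3 CPM in aJ1aJ2 and 70.2 CPM in aN1aN2 of EC2, and 76.0 CPM in aJ1aJ2 and 4.37 CPM in aN1aN2 of EC1. Mural markers in the EC2 sums were 2384 and 1974 CPM in aJ1aJ2 and 4904, 1372 and 7768 CPM in aN1aN2. Erythroid markers in EC2 were 338 CPM in aJ1aJ2 pool 3, 11481 CPM in aJ1aJ2 pool 4 and 1341 to 1772 CPM in aN1aN2. The part of these markers in the EC2 values was not tested. Car4, a carbonic anhydrase of capillary endothelium, differed by 1.36 ± 0.20 SE, adjusted p = 1.08e-06, and averaged 482 CPM in aJ1aJ2 and 1653 CPM in aN1aN2 of EC2. The count of 77 fell to 46 without aJ1aJ2 pool 3 and to 34 without aJ1aJ2 pool 4.

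EC3 had few calls, and of its 39 named genes that were called, 8 stayed so in every alternative. Dll4 was at 114 and 80.3 CPM in aJ1aJ2 pools 3 and 4 and at 25.8, 19.2 and 14.0 CPM in aN1aN2 of EC3 (-2.34 ± 0.42 SE, adjusted p = 0.00344), which did not hold without aJ1aJ2 pool 3 (adjusted p = 0.0919). Hes1 was at 192 and 214 CPM against 51.6, 134 and 48.9 CPM (-1.32 ± 0.32 SE, adjusted p = 0.0356), and Kdr at 516 and 382 CPM against 120.4, 128 and 258 CPM (-1.41 ± 0.30 SE, adjusted p = 0.0219). The aN1aN2 pools were the low ones for all 3, but the Hes1 and Kdr calls were lost in 6 and 4 of 11 alternatives, with adjusted p up to 0.31 and 0.269. Of 12 arterial genes tested only Stmn2 fell (-1.18 ± 0.23 SE, a call lost without aJ1aJ2 pool 3 or 4, adjusted p = 0.0968 and 0.102), with a median of -0.35. None of 8 venous genes tested was called (median 0.30). Gja4, at 292 and 176 CPM against 120.4, 147 and 175 CPM, was not called (-0.68 ± 0.34 SE, adjusted p = 0.43) and was looked at after its EC1 value was seen. The Gja4 response was less negative in EC3 than in EC1 by 3.33 ± 0.53 SE, adjusted p = 6.93e-04, one of 68 genes of 7975 whose response differed (0.853%), 33 higher (0.414%) and 35 lower (0.439%) in EC3. That count was 19 without aJ1aJ2 pool 3, 18 without aJ1aJ2 pool 4, 22 without aN1aN2 pool 2 and 33 without aN1aN2 pool 3.

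Igfbp5, a binding protein for insulin-like growth factors, was at 2492 and 2585 CPM against 422, 237 and 503 CPM in EC3 (-2.72 ± 0.40 SE, adjusted p = 0.00913), a call lost in 4 of 11 alternatives with adjusted p up to 0.121. Tpm2, a tropomyosin of contractile cells, was at 179.9 and 325 CPM against 25.8, 63.9 and 21.0 CPM (-2.68 ± 0.36 SE, adjusted p = 1.30e-04), a call lost with an equal number of cells from each pool (adjusted p = 0.755). Both were lower in every aN1aN2 pool. In the same sums the 8 mural markers were at 1077 and 1480 CPM against 753 to 952 CPM and the 9 fibroblast markers at 787 and 470 CPM against 77.4 to 297 CPM, and their part in these values was not tested. The erythroid markers were at 244 and 290 CPM against 743 to 1130 CPM, and Hbb-bs and Hbb-bt were called higher, Hbb-bt with a call lost in 5 of 11 alternatives (adjusted p up to 0.269).

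**Figure D3:**
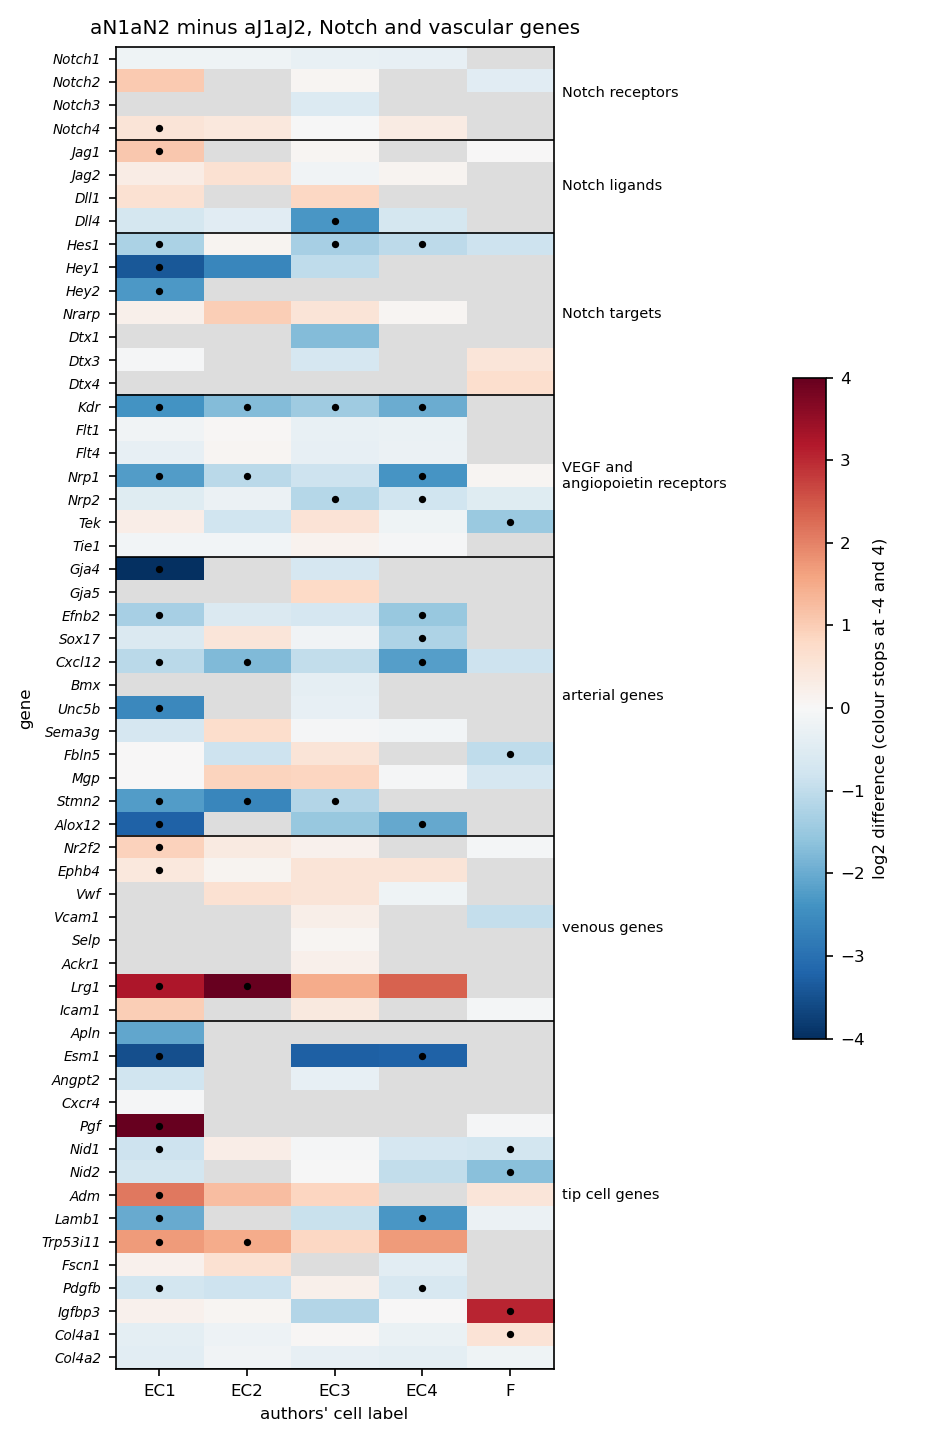
Log2 difference aN1aN2 minus aJ1aJ2 (colour) of Notch, VEGF receptor, arterial, venous and tip cell genes (vertical axis) in each label (horizontal axis). Blue is lower and red higher in aN1aN2, grey is not tested, and a black dot marks a call. Kdr is called lower in EC1, EC2, EC3 and EC4.

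Genes by which capillary endothelium takes up fatty acids were called in both directions, and Cd36 and Gpihbp1 were called higher in all 4 EC labels, a call of Gpihbp1 in EC3 that was lost without aJ1aJ2 pool 3 or 4 or aN1aN2 pool 1 or 3 (adjusted p up to 0.203). In EC1, 5 of 10 tested rose (Gpihbp1, Fabp4, Cd36, Lpl and Angptl4) and Slc27a3 fell (median 0.74). In EC4 3 of 5 rose and none fell (median 1.15), in EC3 2 of 10 rose and none fell, and in EC2 3 of 10 rose and 3 fell (Aqp7, Fabp5 and Tcf15, the last a call lost in 1 of 11 alternatives, adjusted p = 0.109). Gpihbp1, the capillary anchor of lipoprotein lipase, was at 1560, 979 and 1031 CPM in aJ1aJ2 and at 3589, 3588 and 3326 CPM in aN1aN2 of EC1 (1.56 ± 0.14 SE, adjusted p = 5.67e-08). In EC4 Gpihbp1 was at 1684, 1313 and 1158 CPM against 4438, 4382 and 4827 CPM (1.75 ± 0.17 SE, adjusted p = 2.37e-10). All aN1aN2 pools were high in both labels, and the RW pools lay at 1377 to 1645 CPM in EC1 and 979 to 1650 CPM in EC4. Cd36, a fatty acid receptor, was at 399 and 321 CPM against 2839, 2659 and 2046 CPM in EC3 (2.80 ± 0.35 SE, adjusted p = 4.74e-04). In EC2, where its level was highest, Cd36 was at 4237 and 4590 CPM against 10408, 10301 and 8366 CPM (1.14 ± 0.16 SE, adjusted p = 2.74e-05). In EC4 Cd36 was at 166, 275 and 171 CPM against 851, 638 and 990.2 CPM (1.95 ± 0.23 SE, adjusted p = 2.34e-08). In these 3 labels Cd36 was higher in every aN1aN2 pool. Fabp4, an intracellular fatty acid carrier, rose in EC1 (0.65 ± 0.11 SE, a call lost with an equal number of cells from each pool, adjusted p = 0.0694) and EC4 (1.15 ± 0.32 SE), a call lost in 7 of 13 alternatives in EC4 with adjusted p up to 0.106, and responded lower in EC2 than in EC1 (-0.78 ± 0.14 SE, adjusted p = 1.49e-04).

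Listed targets of the glucocorticoid receptor were called higher and none lower in each label. This receptor is a hormone-activated transcription factor that raises genes such as Tsc22d3, Fkbp5 and Ddit4. Of the listed targets tested, 11 of 15 rose in EC1, 7 of 11 in EC2, 5 of 15 in EC3, 8 of 11 in EC4 and 12 of 15 in F, and none fell in any label. The medians were 1.77, 1.82, 1.64, 1.46 and 2.44, against medians of all tested genes between -0.02 and 0.01. Tsc22d3, Fkbp5, Cdkn1a and Ddit4 were called higher in all 5 labels.

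Tsc22d3, an anti-inflammatory leucine zipper protein, was at 456, 479 and 381 CPM in aJ1aJ2 and at 2751, 2806 and 2263 CPM in aN1aN2 of F (2.57 ± 0.21 SE, adjusted p = 2.12e-09). In EC1 Tsc22d3 was at 616, 398 and 379 CPM against 1443, 1488 and 1343 CPM (1.64 ± 0.16 SE, adjusted p = 8.85e-07). Fkbp5, a co-chaperone of the receptor, was at 35.9, 69.0 and 43.1 CPM against 489.5, 563 and 544 CPM in EC1 (3.36 ± 0.21 SE, adjusted p = 8.13e-10). The aN1aN2 pools were above every aJ1aJ2 and RW pool for both genes in these labels, with RW at 26.6 to 53.1 CPM for Fkbp5 in EC1. Ddit4, an inhibitor of the growth kinase mTORC1, was at 58.7, 23.6 and 46.5 CPM against 699.9, 783 and 863 CPM in EC1 (4.28 ± 0.20 SE, adjusted p = 1.95e-12). Cdkn1a, the cell cycle inhibitor p21, was at 58.7, 30.0 and 39.7 CPM against 1148, 1027 and 1187 CPM in EC1 (4.80 ± 0.57 SE, adjusted p = 0.00209). In EC4 Cdkn1a was at 47.5, 46.9 and 12.7 CPM against 1391, 1359 and 1323 CPM (5.38 ± 0.40 SE, adjusted p = 1.38e-09). The RW pools of EC1 lay between the groups for Cdkn1a, at 185, 259 and 66.3 CPM. In the test of the difference between F and EC1, Fkbp5, Cdkn1a, Ddit4 and Sult1a1 responded lower in F, and Tsc22d3, Sgk1 and Pdk4 higher.

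The glucocorticoid receptor palindrome GNACANNNTGTNC, its own reverse complement, was looked up in the same promoter windows. It was present in 145 of 27025 genes (0.537%). In EC1 it was present in 9 of 533 genes called higher (1.69%), in 0 of 476 called lower and in 27 of 7311 tested (0.369%). In F it was present in 6 of 293 called higher (2.05%), in 1 of 311 called lower (0.322%) and in 14 of 3811 tested (0.367%). Of 17 listed targets with a window, Mt1 and Sgk1 held it, and their windows (Mt1 chr8:94178839-94179138 and Sgk1 chr10:21993640-21993939, both plus strand, 1 match each) are shown with the match in capitals. Mt1, a metal-binding protein named in EC1 after its values were seen, was at 96.2, 85.0 and 142 CPM against 455, 341 and 312 CPM in EC1 (1.77 ± 0.30 SE, adjusted p = 0.00484). Sgk1, a kinase that regulates ion transport, was at 39.2, 46.8 and 51.8 CPM against 183, 345 and 94.3 CPM in F (2.22 ± 0.32 SE, adjusted p = 4.67e-05). The aN1aN2 pools were the high ones for both.
Mt1: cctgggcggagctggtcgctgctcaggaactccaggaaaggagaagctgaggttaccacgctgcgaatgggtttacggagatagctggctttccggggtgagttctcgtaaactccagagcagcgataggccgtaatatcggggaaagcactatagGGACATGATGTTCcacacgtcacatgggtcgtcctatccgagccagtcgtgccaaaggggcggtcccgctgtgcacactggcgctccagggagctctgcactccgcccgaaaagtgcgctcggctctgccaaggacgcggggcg
Sgk1: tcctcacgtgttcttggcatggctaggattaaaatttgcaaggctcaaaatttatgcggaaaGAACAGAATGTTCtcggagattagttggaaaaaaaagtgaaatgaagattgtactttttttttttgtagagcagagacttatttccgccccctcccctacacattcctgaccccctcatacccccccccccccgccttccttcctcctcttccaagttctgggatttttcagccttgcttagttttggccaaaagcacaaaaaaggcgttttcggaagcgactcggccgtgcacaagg

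Some genes of fasting and fatty acid oxidation rose too. Of those tested, 8 of 14 rose in EC1, 4 of 8 in EC2 and 1 of 11 in EC3 (Ucp2). In EC4 3 of 7 rose and in F 5 of 11, and none fell in any label. The medians were 0.69, 0.78, 0.11, 0.23 and 1.44. Over all tested genes 1.16% to 9.26% were called higher in these labels. Angptl4 is also in the list of fatty acid uptake genes and Pdk4 in that of glucocorticoid receptor targets, so the lists overlap. Calls were lost in 9 of 12 alternatives for Acadl in EC4 (adjusted p up to 0.373), and in EC2 in 5 of 11 for Plin2 (up to 0.215), 2 of 11 for Txnip (up to 0.12) and 1 of 10 for Angptl4 (0.0975). Ucp2, a mitochondrial carrier, was at 205, 236 and 289 CPM against 2500, 2432 and 2556 CPM in EC1 (3.34 ± 0.12 SE, adjusted p = 1.47e-19). In EC4 Ucp2 was at 285, 302 and 342 CPM against 2425, 2483 and 2609 CPM (2.99 ± 0.18 SE, adjusted p = 7.89e-16). The RW pools were near aJ1aJ2, at 291 to 339 CPM in EC1. Pdk4, a kinase that shuts off pyruvate oxidation, was at 7.36, 9.64 and 23.4 CPM against 215, 305 and 178 CPM in F (4.07 ± 0.34 SE, adjusted p = 2.69e-09). Angptl4, an inhibitor of lipoprotein lipase, was at 34.3, 13.8 and 58.4 CPM against 341, 484 and 440.1 CPM in F (3.59 ± 0.35 SE, adjusted p = 4.88e-06). Both rose in F without overlap, and RW lay between the groups for Angptl4 (109 to 176 CPM). In EC1 Angptl4 had 2 UMIs in aJ1aJ2 and 47 in aN1aN2, a ratio of 76.6 with a 95% counting interval of 20.1 to 651.

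**Figure D4:**
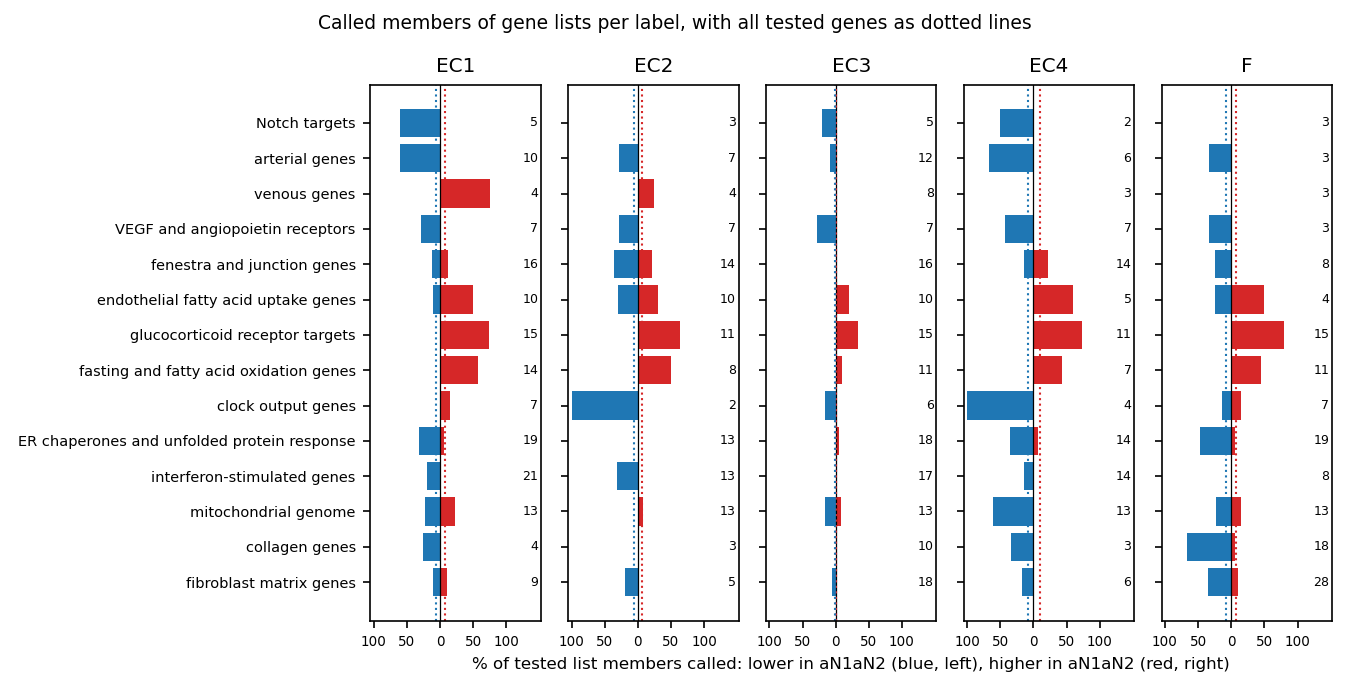
Percentage of the tested members of 14 gene lists (vertical axis) called lower (blue, to the left) or higher (red, to the right) in aN1aN2, in 1 panel for each label. The number tested stands at the right and dotted lines give the percentage over all tested genes. Glucocorticoid receptor targets were called in 1 direction in every label.

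Clock output genes, which cycle over the day, were called lower in EC2 and EC4. Both tested in EC2 and all 4 tested in EC4 were called lower, with 1 of 6 lower in EC3 (Nr1d1). In EC4 the calls of Dbp and Nr1d1 held in every alternative, while that of Tef was lost in 6 of 11 (adjusted p up to 0.48) and that of Nr1d2 in 4 of 12 (up to 0.141). Nr1d1 lost its call in EC2 in DESeq2 (adjusted p = 0.0802), and in EC3 without aJ1aJ2 pool 3 (adjusted p = 0.135) or aN1aN2 pool 2 (adjusted p = 0.063). In EC1 1 of 7 rose (Nfil3) and none fell (median -0.55), and in F 1 of 7 rose (Nfil3) and 1 fell (Nr1d2). The test of the difference called none of the clock output genes between EC1 and EC2, EC3, EC4 or F. It called 4 of 8 lower in EC1 than in Th1 (Tef, Nr1d1, Dbp and Hlf). The Nfil3 call in EC1 was lost without aN1aN2 pool 2 (adjusted p = 0.101), and the Nr1d2 call in F in 6 of 12 alternatives (adjusted p up to 0.216). Dbp, a transcription factor with a strong daily rhythm, was at 261, 302 and 335 CPM against 22.3, 30.4 and 66.7 CPM in EC4 (-3.06 ± 0.37 SE, adjusted p = 4.18e-08). In EC2 Dbp had 168 UMIs in aJ1aJ2 and 0 in aN1aN2, at least 15.5-fold lower with 3 counts over the group taken as the floor. In EC1, where it was looked at after its EC4 value was seen, Dbp was at 254, 268 and 303 CPM against 18.3, 42.9 and 19.1 CPM and was not called (-3.37 ± 1.20 SE, adjusted p = 0.139). RW pools 1, 2 and 3 were at 31.3, 13.1 and 185 CPM for Dbp in EC1 and at 44.1, 0 and 65.9 CPM in EC4. All RW pools of EC4, and RW pools 1 and 2 of EC1, thus lay at or near the aN1aN2 level and not at that of aJ1aJ2. The labels do not give the hour of sampling.

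Mitochondrial ribosomal RNA fell in every label. The 16S RNA mt-Rnr2, named after its values were seen, was at 70390, 79124 and 68448 CPM in aJ1aJ2 and at 15969, 16488 and 18499 CPM in aN1aN2 of EC4 (-2.10 ± 0.16 SE, adjusted p = 2.00e-13). In EC1 mt-Rnr2 was at 31737, 30701 and 27201 CPM against 13639, 11668 and 11628 CPM (-1.28 ± 0.10 SE, adjusted p = 1.87e-11). mt-Rnr2 was called lower in EC2 (-1.34), EC3 (-1.57) and F (-1.37) too. Of the 13 protein genes of the mitochondrial genome, 8 fell and none rose in EC4 (median -0.70), and 3 fell and 3 rose in EC1 (median -0.01). None fell and 1 rose in EC2 (median 0.16), 2 fell and 1 rose in EC3 (median -0.25), and 3 fell and 2 rose in F (median -0.00). The test of the difference called 8 of the 13 lower in EC4 than in EC1. Median UMIs per cell were lower in every aN1aN2 pool than in any aJ1aJ2 pool in EC2, EC4 and F and overlapped in EC1 and EC3, and their part in these values was not tested.

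Interferon-stimulated genes were lower or not called. In EC1, 4 of 21 fell, among them Irf7, Gbp3 and Isg15, and none rose (median -0.82), and in EC2 4 of 13 fell, all interferon-induced GTPases (Gbp2, Gbp3, Gbp7 and Iigp1). Irf7, a regulator of interferon genes, was at 97.8, 108 and 79.5 CPM against 45.8, 37.5 and 22.3 CPM in EC1 (-1.38 ± 0.27 SE, adjusted p = 5.20e-04). The EC2 calls were lost in 5 of 11 alternatives for Gbp2, 4 of 9 for Gbp3, 1 of 11 for Gbp7 and 4 of 11 for Iigp1, with adjusted p up to 0.195. In EC4 2 of 14 fell (Gbp3 and Iigp1, median -0.62), calls lost in 5 of 11 and 10 of 13 alternatives. Over all genes tested in EC4 8.26% were called lower. In EC3 and F none of the 17 and 8 genes tested was called (medians -0.91 and -1.12). The test of the difference called none of the listed genes between EC1 and EC2, EC3, EC4 or F.

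In fibroblasts, collagen genes were lower under the receptor antibodies. Of 18 collagen genes tested in F, 12 fell and 1 rose (Col4a1), with a median of -1.78 against -0.02 over all tested genes. Col3a1 (chr1:45311538-45349706), a main fibrillar collagen, was at 3107, 1971 and 2603 CPM in aJ1aJ2 and at 492, 199 and 304 CPM in aN1aN2 (-2.94 ± 0.46 SE, adjusted p = 0.00506). Col1a2, of collagen type I, was at 2741, 2406 and 3302 CPM against 1344, 683 and 587 CPM (-1.68 ± 0.32 SE, adjusted p = 0.00501). Col15a1, of the basement membrane zone, was at 620.3, 383 and 553 CPM against 75.7, 73.0 and 168 CPM (-2.38 ± 0.27 SE, adjusted p = 6.14e-07). The RW pools were at 11760, 10636 and 4865 CPM for Col3a1, 3868 to 6932 CPM for Col1a2 and 717 to 823 CPM for Col15a1, so for all 3 the order was RW above aJ1aJ2 above aN1aN2 with no overlap. Col6a3, of collagen VI, was at 459, 574 and 568 CPM against 107, 86.2 and 73.4 CPM (-2.55 ± 0.23 SE, adjusted p = 1.11e-08). Col4a1, of basement membrane, was at 510, 583 and 643 CPM against 877, 882 and 786 CPM (0.55 ± 0.17 SE, adjusted p = 0.0265). Col4a1 was the one to rise, and its call was lost in 5 of 12 alternatives with adjusted p up to 0.308. Col15a1 was also called lower in EC1 (1 of 4 collagen genes tested, median -1.37) and EC4 (1 of 3, median -0.40). None of 3 was called in EC2 (median -0.20) and none of 10 in EC3 (median -1.50). Between F and EC1 the test of the difference called Col5a3 lower and Col4a1 higher in F, and did not call the other 16 of 18.

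Of 28 other matrix genes tested in F, 10 fell and 3 rose (median -0.79). Sparc, a collagen-binding matrix protein, was at 2697, 1741 and 2371 CPM against 852, 491 and 608 CPM (-1.80 ± 0.22 SE, adjusted p = 4.91e-06). Loxl1, an enzyme that crosslinks elastin, was at 432, 450.3 and 382 CPM against 114, 92.9 and 136 CPM (-1.91 ± 0.22 SE, adjusted p = 4.02e-07). Its relative Lox went the other way, from 123, 127 and 162 CPM to 782, 916 and 692 CPM (2.54 ± 0.22 SE, adjusted p = 1.11e-08). The protease Mmp14, which cleaves collagen, was at 172 to 199.7 CPM against 367 to 593 CPM (1.35 ± 0.19 SE, adjusted p = 1.26e-05). The pools did not overlap for any of these. Of 19 genes of protein folding and stress in the endoplasmic reticulum, 9 fell and 1 rose (Atf4), with a median of -0.96. Hsp90b1, a chaperone, was at 1064, 956 and 1062 CPM against 454, 325 and 304 CPM (-1.49 ± 0.20 SE, adjusted p = 4.73e-06), and Calr, calreticulin, at 1130, 892 and 831 CPM against 341, 259 and 252 CPM (-1.73 ± 0.20 SE, adjusted p = 6.67e-07). Both were lower in every aN1aN2 pool. In EC1 6 of 19 of these genes fell and 1 rose, in EC4 5 of 14 fell and 1 rose, in EC3 1 of 18 rose (Xbp1), and in EC2 none of 13 was called. The Xbp1 call in EC3 was lost in 7 of 11 alternatives (adjusted p up to 0.351), and that of Pdia3, lower in EC4, in 6 of 13 (up to 0.301). Of the 9 fibroblast markers 7 fell in F, 3 of them collagens, while their sum was 33436 to 42093 CPM in aJ1aJ2 and 33462 to 39301 CPM in aN1aN2.

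Other genes of F rose. Igfbp3, a binding protein for insulin-like growth factors, was at 432, 274 and 432 CPM against 1943, 2886 and 4495 CPM (3.03 ± 0.27 SE, adjusted p = 1.57e-06). Igfbp5 was at 2351, 2100 and 2155 CPM against 322, 332 and 105 CPM (-3.07 ± 0.67 SE, adjusted p = 0.0265), a call lost in every fit that left out 1 pool, with adjusted p between 0.0629 and 0.0973. The aN1aN2 pools were the high ones for Igfbp3 and the low ones for Igfbp5. Cxcl13, a chemokine that attracts B cells, was at 76.0, 136 and 10.0 CPM against 4871, 2110 and 3060 CPM (5.47 ± 1.31 SE, adjusted p = 0.0376), and also lost its call in every fit that left out 1 pool, with adjusted p between 0.0735 and 0.119. Sox4, a transcription factor, was at 36.8, 75.7 and 61.8 CPM against 883, 836 and 597 CPM (3.69 ± 0.31 SE, adjusted p = 1.07e-06). Cxcl13 and Sox4 were higher in every aN1aN2 pool than in any aJ1aJ2 pool. Lgals1, galectin-1, was at 1307, 1111 and 1087 CPM against 133, 113 and 105 CPM (-3.30 ± 0.22 SE, adjusted p = 5.94e-11), and Cd248, a surface protein of perivascular fibroblasts, at 368, 331 and 281 CPM against 31.6, 13.3 and 31.4 CPM (-3.70 ± 0.34 SE, adjusted p = 1.72e-08). Both fell without overlap. Only 1 of 4 Notch receptors, 1 of 6 ligands and 3 of 10 targets passed the filter on low counts in F, and none was called. Hes1 was at 105, 63.3 and 75.1 CPM against 75.7, 13.3 and 41.9 CPM (-0.83 ± 0.57 SE, adjusted p = 0.385). The test of the difference between F and EC1 called none of 5 Notch targets.

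Erythroid markers in the F sums were 161 to 982 CPM in aJ1aJ2, 851 and 1233 CPM in aN1aN2 pools 1 and 3, and 43673 CPM in aN1aN2 pool 2. Without that pool the collagen, matrix and chaperone genes given above with their values kept their calls, Col4a1 excepted (adjusted p = 0.112). The 8 mural markers were at 312 to 475 CPM against 118 to 224 CPM, with Myh11 at 0 in every pool except aJ1aJ2 pool 3. Kcnj8 and Abcc9 were called lower, calls lost in 3 and 5 of 12 alternatives (adjusted p up to 0.151 and 0.148). The sum of the endothelial markers was 168 to 184 CPM against 103 to 121 CPM, and that of the macrophage markers 10.6 to 18.8 CPM against 0 to 5.64 CPM. The part of these markers in the other calls of F was not tested.

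**Figure D5:**
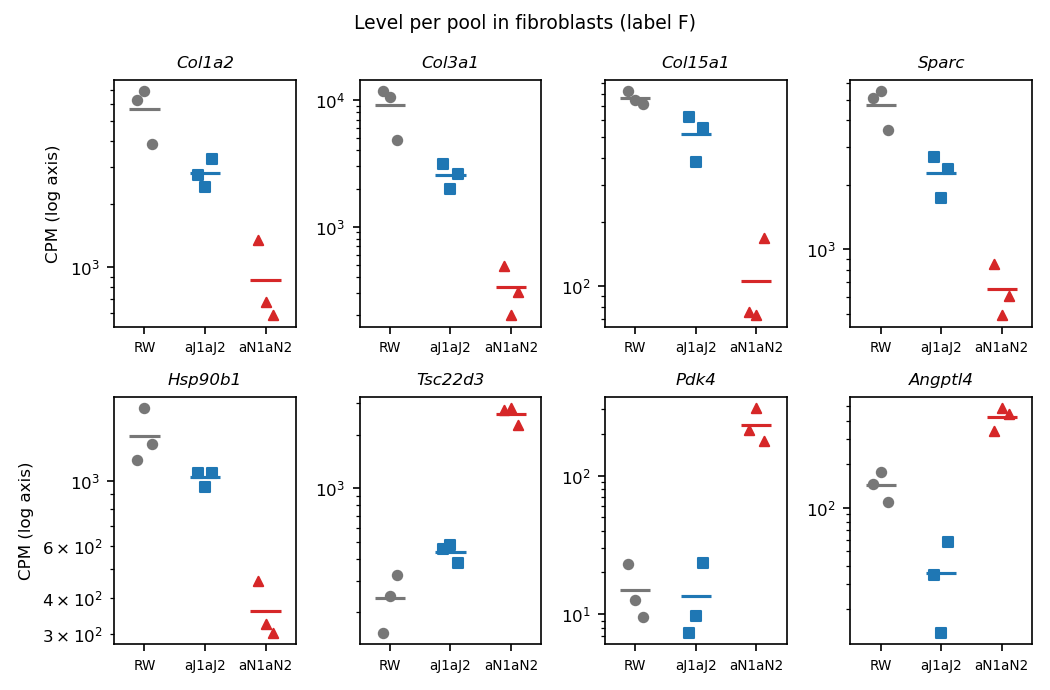
Levels per pool in F in CPM (vertical axis, logarithmic, scale differs between panels) of Col1a2, Col3a1, Col15a1, Sparc, Hsp90b1, Tsc22d3, Pdk4 and Angptl4. Each symbol is 1 pool (grey RW, blue aJ1aJ2, red aN1aN2) and each line the mean of 3 pools. The first 5 genes are lowest and the last 3 highest in aN1aN2.

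Responses in F and EC1 differed for 404 of 7861 genes (5.14%), 120 higher (1.53%) and 284 lower (3.61%) in F, with a median of -0.11 over all genes. Sox4 rose in F and fell in EC1, from 142, 164 and 191 CPM to 101, 51.0 and 63.7 CPM, a difference of 4.77 ± 0.29 SE, adjusted p = 6.78e-13. The balance moved to 136 higher and 229 lower with DESeq2 size factors (median -0.03), to 78 and 92 with an equal number of cells (median 0.01) and to 141 and 170 without aJ1aJ2 pool 1 (median 0.02). Of 19 endoplasmic reticulum genes tested, 8 responded lower in F than in EC1 and none higher. The count of 404 was 237 without aN1aN2 pool 1 and 203 without aN1aN2 pool 2.

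Responses in EC1 and in thyrocytes (label Th1) differed for 672 of 11372 genes (5.91%), 322 higher (2.83%) and 350 lower (3.08%) in EC1. Of 20 endoplasmic reticulum genes 16 responded higher in EC1 than in Th1 and none lower (median 1.20 against -0.04 over all genes). Hey1 (-2.86 ± 0.79 SE, adjusted p = 0.0209), Hes1 (-1.55 ± 0.18 SE, adjusted p = 5.39e-08) and Efnb2 (-0.99 ± 0.23 SE, adjusted p = 0.00427) responded lower in EC1 than in Th1. Jag1 responded higher in EC1 (1.80 ± 0.33 SE, adjusted p = 2.65e-04). These 4 were named after their values were seen. The count of 672 was 385 without aN1aN2 pool 1 and 414 without aN1aN2 pool 2.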

How the data were processed

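Thyroid cells from 9 pools of mice were profiled by droplet single-cell RNA sequencing. The authors deposited UMI counts per gene and cell and a table with the label of each cell; Cell Ranger and GRCm38 are named in the submitters' processing notes. How cells were filtered, labelled and cleared of doublets is not given in the sources used here; the deposited cells held 500 to 131347 UMIs, and no further cell filter or doublet caller was applied. Cells were counted as members by the authors' label alone.

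Raw counts were summed per pool and label, and a pool entered with at least 20 cells. UMI sums per pool were 315990 to 437765 in aN1aN2 and 611992 to 1575420 in aJ1aJ2 for EC1, and 107055 to 177402 and 446373 to 796140 for F. Sums were tested with edgeR 4.0.16 (R 4.3.3; filterByExpr, TMM, robust quasi-likelihood fit over the RW, aJ1aJ2 and aN1aN2 pools, Benjamini-Hochberg adjustment over all tested genes of a label). Differences in response between labels were tested with pool as a block. CPM is per 1000000 UMIs of tested genes with TMM scaling for genes, and per 1000000 UMIs of the pool and label for marker sums. Shares of cells were compared by an exact permutation test. Of 52636 gene identifiers, 52403 matched a symbol, and positions are from GENCODE on GRCm38.

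The members and the 9 marker and 31 pathway lists were chosen with earlier results of these data known. Genes were named by rule: in each label the 10 highest and 10 lowest differences among called genes with at least 30 UMIs and groups that did not overlap, up to 4 called members of each list in order of adjusted p, and every tested Notch receptor, ligand and target; for differences between labels, the 5 highest and 5 lowest. Genes named otherwise are marked or stand in a count or list of called members. Alternatives were DESeq2 1.42.0, DESeq2 size factors, no filter on low counts, only the 6 pools compared, cells with at least 1000 UMIs, an equal number of cells per pool, pools with at least 50 cells, and each pool left out. In EC4 requiring 50 cells removed only aJ1aJ2 pool 1 and so gave the same fit as leaving that pool out. Counts of EC4 alternatives include both. RW pool 3 and aJ1aJ2 pool 1 carry numbers assigned here, since their titles give none.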

Additional observations from a re-analysis of the deposited data

Results flagged for a closer look

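Responses that differed between labels in the edgeR test of the difference are given here as values, with no explanation. The numbers of genes were 404 between F and EC1, 77 between EC2 and EC1, 68 between EC3 and EC1, 15 between EC4 and EC1, and 672 between EC1 and Th1. Single genes are those named by rule whose mean was at least 4 CPM in all 4 groups of pools, a level chosen after the values were seen and met by 26 of 47 genes. They are log2 differences of the 2 responses.

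F responded higher than EC1 for Sox4 (4.77), Ankrd44 (4.00) and the stress-response gene Gadd45b (3.62). EC2 responded higher than EC1 for Gja4 (6.08), Ehd4 (1.71), Dlc1 (1.56), Car4 (1.36) and Hes1 (1.33). EC2 responded lower than EC1 for Bok (-3.44), the interferon-induced Gbp9 (-3.10) and Calca (-2.97). EC3 responded higher than EC1 for Gja4 (3.33), Cdc14a (2.38), Alpl (2.22), Unc119b (2.19) and Tmem255b (2.05), and lower for Cryab (-3.05) and Tpm2 (-2.79). EC4 responded higher than EC1 for Tmem50a (0.96) and Itm2b (0.61). It responded lower for the pericyte marker Rgs5 (-2.87), Lars2 (-1.61), Mir6236 (-1.07), mt-Co2 (-0.83) and mt-Rnr1 (-0.82). EC1 responded lower than Th1 for Cpxm2 (-4.63).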

How the results depend on the processing

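No paired analysis was possible because aN1aN2 and aJ1aJ2 share only the number 3 in the titles. Of the 339 named genes that were called, 204 were called in every alternative that tested them. With an equal number of cells from each pool, 115 genes were called in EC2, 220 in EC4, 383 in F, 170 between F and EC1, 15 between EC2 and EC1, 7 between EC4 and EC1 and 363 between EC1 and Th1, from fewer UMIs. DESeq2's Wald test called 167 in EC2, 318 in EC4, 167 between F and EC1, 27 between EC2 and EC1, 39 between EC3 and EC1 and 411 between EC1 and Th1; the cause was not tested. Without a filter on low counts EC3 gave 247, and higher genes made up 41.6% of the called genes in EC1 (51.1% with the filter), 40.9% in EC2 (54.4%), 44.5% in EC3 (60.5%), 59.3% in EC4 (52.9%) and 32.9% in F (48.2%). Leaving out 1 pool at a time gave 909 to 1323 genes in EC1, 197 to 236 in EC2, 30 to 95 in EC3, 376 to 580 in EC4 and 502 to 657 in F. For the differences it gave 203 to 324 between F and EC1, 34 to 64 between EC2 and EC1, 18 to 66 between EC3 and EC1, 6 to 14 between EC4 and EC1 and 385 to 586 between EC1 and Th1. Without erythroid cells the share difference was 1.19 percentage points for EC3 and 14.8 for EC4, and with cells of at least 1000 UMIs it was 5.10 for EC4. Iigp1 in EC4 changed sign with equal cells (0.0386, adjusted p = 0.977). Pools with at least 50 cells could not be required in EC2, EC3 and F, where no aN1aN2 pool held them.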

Other observations

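Smad7, an inhibitor of signalling by transforming growth factor beta, and Ltbp4, which anchors that factor in the matrix, were called lower in EC1, EC2, EC3 and EC4. In EC3 the Smad7 call was lost without aJ1aJ2 pool 3 (adjusted p = 0.197) or aN1aN2 pool 2 (adjusted p = 0.0624), and the Ltbp4 call without aJ1aJ2 pool 4 (adjusted p = 0.285). Smad7 was at 166, 255 and 253 CPM in aJ1aJ2 and at 29.7, 42.9 and 54.1 CPM in aN1aN2 of EC1 (-2.47 ± 0.21 SE, adjusted p = 1.99e-10). Ltbp4 was at 735, 597 and 682 CPM against 229, 169 and 166 CPM (-1.82 ± 0.15 SE, adjusted p = 4.01e-11). Neither gene overlapped between the groups in EC1, where the RW pools lay at 173 to 198 CPM for Smad7 and 603 to 825 CPM for Ltbp4. In EC4 Smad7 was at 166, 208 and 259 CPM against 55.6, 30.4 and 66.7 CPM (-2.13 ± 0.34 SE, adjusted p = 6.65e-06). Of the listed genes of this pathway, 3 of 13 rose and 4 fell in EC1, 2 of 6 fell in EC2, 3 of 12 fell in EC3, and 1 of 7 rose and 2 fell in EC4. In F 1 of 14 fell (Tgfbi), a call lost in 7 of 12 alternatives (adjusted p up to 0.169), while 8.41% of all genes tested in F were called lower.

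Immediate early genes, which respond within minutes to many stimuli including tissue digestion, were higher in some labels. In EC4 6 of 13 rose and 1 fell (Nr4a1), with a median of 0.87, in EC2 5 of 11 rose (median 1.10) and in EC1 3 of 15 (median 0.49). Dusp1, among those called higher in EC4, is also a listed target of the glucocorticoid receptor. The Fosl2 call was lost in 5 of 12 alternatives in EC1 (adjusted p up to 0.164) and in 4 of 10 in EC2 (up to 0.188), the Btg2 call in 2 of 12 in EC1 (up to 0.109), and the Jund call in 1 of 13 in EC4 (0.698). In EC3 none of 15 was called and in F 1 of 14 rose. Jund, a component of the AP-1 transcription factor, was at 259, 129.7 and 174 CPM against 432, 536 and 449 CPM in EC1 (1.38 ± 0.20 SE, adjusted p = 2.08e-04), and in EC2 at 323 and 370 CPM against 811, 978 and 1182 CPM (1.49 ± 0.21 SE, adjusted p = 2.74e-05). Both labels had every aN1aN2 pool above every aJ1aJ2 pool. Klf2, a transcription factor induced by blood flow, was at 996, 771 and 917 CPM against 2019, 1830 and 1504 CPM in EC4 (1.02 ± 0.17 SE, adjusted p = 2.16e-05). Of core clock genes, 2 of 9 tested rose in EC1 (Per1 and Per2) and none fell, and 1 of 3 rose in EC4 (Per1, a call lost in 8 of 13 alternatives, adjusted p up to 0.489). In F 2 of 8 rose (Npas2 and Arntl) and 2 fell (Per3 and Bhlhe40), with the Arntl call lost in 3 of 10 alternatives (adjusted p up to 0.188) and the Per3 call in 1 of 11 (0.0512). Per1 in EC1 was at 53.8, 33.2 and 42.4 CPM against 73.2, 83.1 and 92.3 CPM (0.99 ± 0.23 SE, adjusted p = 0.00236), and its call was lost with an equal number of cells from each pool (adjusted p = 0.0519). The Per2 call was lost in 8 of 12 alternatives, with adjusted p up to 0.356.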
